A study of Mus musculus with 4 samples.

Results

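The miR-144 and miR-451a cluster is a short stretch of mouse chromosome 11 that holds the hairpin genes Mir144 and Mir451a. Its products on the array were miR-144-3p, miR-144-5p and miR-451a. The members were taken by name, as every non-control spot annotated to one of these mature miRNAs, a rule that uses no measured value. They made up 3 of the 1247 miRNAs on the array, 6 of its 3105 miRNA probes and 120 of the 49880 miRNA spots of each array.

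The cells were the stromal vascular fraction (SVF) of visceral white adipose tissue (visWAT), that is, the cells left after collagenase digestion once the floating mature adipocytes have been removed. This fraction holds preadipocytes and other mesenchymal cells, endothelial cells, mural cells and leukocytes, and it can carry blood cells over from the vessels. Total RNA was labelled with Cy3 and hybridised to 1-colour Agilent miRNA arrays, 2 for the vehicle and 2 for CL. Vehicle arrays came from female C57/BL6 mice aged 8 weeks and given phosphate-buffered saline (PBS) for 3 days, and CL arrays from like mice given 1 mg/kg CL-316,243, an agonist of the β3-adrenergic receptor, for 3 days. No allele or transgene was named for either group. The strain entry ends in a different digit on each array, while the growth protocol gives C57/BL6 for all. The labels give the injections as subcutaneous and the methods of the study as intraperitoneal. RNA of 5 mice was pooled for each array, so the 2 arrays of a group measured the spread between pools, if the pools held different mice, and not between single mice. No red cell lysis step was named for the isolation.

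Both hairpins are cut from a shared primary transcript that is switched on by GATA1, the master transcription factor of the erythroid lineage, and the cluster is best known for its high level in maturing red blood cells. Mir144 is processed by Drosha and then Dicer into an arm from each side of the hairpin. miR-451a takes another way: its precursor is too short for Dicer and is cut by the slicer activity of Argonaute 2, so the mature strand runs around the loop. miR-451a targets Ywhaz, which encodes 14-3-3ζ, and miR-144 targets include the antioxidant factor Nrf2. Mature red cells lack a nucleus but keep miR-451a, and the ratio of miR-451a to miR-23a-3p is used to detect red cell material in plasma.

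The mature strands are shown first because the seed, bases 2 to 8, decides which messages a miRNA can pair with. In the RefSeq sequences (GRCm38.p6), printed 5′ to 3′ with the seed in capitals, no seed was shared between the members, so the cluster carries 3 separate targeting specificities.
mmu-miR-144-3p: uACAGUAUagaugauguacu
mmu-miR-144-5p: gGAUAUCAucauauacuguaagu
mmu-miR-451a: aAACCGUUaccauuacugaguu
The hairpins are shown because they place each mature strand, here in capitals, in its precursor. Mir144 lies at chr11:78073005-78073070 and Mir451a at chr11:78073170-78073241, both on the plus strand.
Mir144: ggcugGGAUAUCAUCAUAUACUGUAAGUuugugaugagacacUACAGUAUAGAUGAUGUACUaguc
Mir451a: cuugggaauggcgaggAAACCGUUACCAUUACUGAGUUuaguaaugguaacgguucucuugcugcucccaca
miR-144-5p occupied bases 6 to 28 and miR-144-3p bases 43 to 62 of the 66-base Mir144 hairpin, on either side of its middle. miR-451a occupied bases 17 to 38 of the 72-base Mir451a hairpin and ran across its middle. The hairpins were separated by 99 bases and spanned 237 bases in all. Besides Mir451b, which fills the interval of Mir451a on the opposite strand, no annotated gene overlapped the span. The nearest protein-coding genes were Eral1, which encodes a mitochondrial ribosomal RNA chaperone, 134 bases to the right, and Flot2, which encodes the membrane scaffold protein flotillin-2, 12570 bases to the left.

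**Figure D1:**
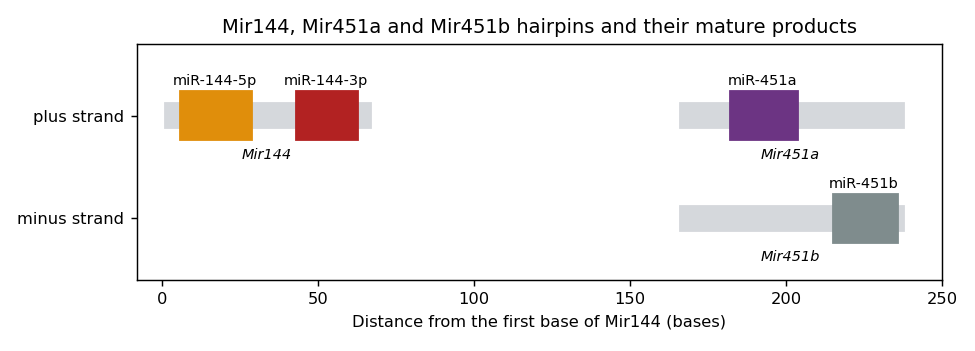
Hairpins (pale bars) and mature products (coloured boxes) of Mir144, Mir451a and Mir451b, drawn to scale against distance in bases from the first base of Mir144, with the strand on the vertical axis. Both arms of Mir144 sit apart within the hairpin, whereas miR-451a runs across the middle of Mir451a, base 36.5 of its 72 bases.

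Each member was read by 2 overlapping probes, printed here because a single base sets them apart. Printed 5′ to 3′ from the array files, the longer probe carries 1 more base at its 3′ end, in capitals, which pairs with base 1 of the mature strand. The shorter probe pairs with base 2 to the last base.
miR-144-3p shorter: agtacatcatctatactgt
miR-144-3p longer: agtacatcatctatactgtA
miR-144-5p shorter: acttacagtatatgatgatatc
miR-144-5p longer: acttacagtatatgatgatatcC
miR-451a shorter: aactcagtaatggtaacggtt
miR-451a longer: aactcagtaatggtaacggttT
Each probe was spotted 20 times on every array. The probes of a member share nearly all of their sequence, and spots of a probe share a labelled sample, so neither were counted as replicates.

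The 4 arrays lay on 1 slide and were scanned once. The vehicle arrays lay in row 1 and the CL arrays in row 2, so row and treatment cannot be told apart. Vehicle 1 and CL 1 shared a column, as did vehicle 2 and CL 2, and differences within each column are given beside the results. Between 386 and 431 miRNAs were detected per array, 425 miRNAs and 708 probes were tested, and no miRNA spot was saturated. Negative control spots averaged 31.7 to 38.6 units of mean spot signal. The middle 50% of the tested miRNAs differed by -0.20 to 0.31 on the log2 scale between the vehicle arrays and by -0.05 to 0.12 between the CL arrays. Of the marker miRNAs of SVF cell types, the 2 endothelial, 5 mesenchymal, 6 leukocyte and 2 mural miRNAs on the array were detected on all 4 arrays, and hepatocyte miR-122-5p was detected on none.

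miR-144-3p, the strand from the 3′ side of Mir144, was several-fold brighter in the SVF of CL-treated mice. The 20 spots of its shorter probe had a median signal of 252 on vehicle 1 and 94.4 on vehicle 2, against 1115 on CL 1 and 848 on CL 2. With the longer probe, the medians were 265, 101, 1239 and 948 in the same order. Every spot of both probes was brighter on both CL arrays than on both vehicle arrays, and vehicle 2 was the dimmest array by a wide margin. The mean of the CL medians was 5.67 times that of the vehicle medians for the shorter and 5.98 times for the longer probe before any background was removed. The scanner software's processed signal, from which background has been subtracted, gave 6.79 and 7.05 times.

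miR-144-5p, from the other side of the same hairpin, was also brighter after CL, close to the background. On its longer probe the median signal was 91.8 and 87.0 on vehicle 1 and vehicle 2, and 161 and 150 on CL 1 and CL 2. All 20 spots of this probe were brighter on both CL arrays, and the processed signal averaged 2.14 times that of the vehicle. The shorter probe had medians of 47.4 and 41.4 on vehicle 1 and vehicle 2, and 62.8 and 57.0 on CL 1 and CL 2. Only 1 of its 20 spots was well above background on each vehicle array, against all 20 on each CL array, so the shorter probe was not well above background in the vehicle. Before any background was removed, the mean of its CL medians was 1.35 times that of the vehicle medians. After background correction and normalisation, its CL mean lay 1.50-fold above the dimmest probe well above background on the vehicle arrays. That value depends on the background correction and is not a lower bound on the fold. The shorter probe entered the tested probes through the CL arrays alone, so no p is given for it.

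miR-451a, the red cell miRNA cut by Argonaute 2, gave strong signals on all arrays and was higher after CL by less than miR-144-3p. Its shorter probe had median signals of 6580 and 8295 on vehicle 1 and vehicle 2, and 13175 and 11904 on CL 1 and CL 2. The longer probe had medians of 10263, 13005, 20308 and 18446 in the same order. Every spot of both probes was brighter on both CL arrays, by 1.69 times on average for the shorter and 1.67 times for the longer probe. Vehicle 1 was here the dimmest array, unlike for miR-144-3p, where vehicle 2 was. The shorter miR-144-5p probe apart, every member spot was thus brighter on both CL arrays than on both vehicle arrays. That probe entered the tested probes through the CL arrays alone and is not counted here. Member spots are repeats of overlapping probes on the same arrays. The share over all miRNA spots was not counted, so no result is read from these spots. Of all tested probes, 36.3% had both CL arrays above both vehicle arrays after normalisation, a share of probes and not of spots.

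**Figure D2:**
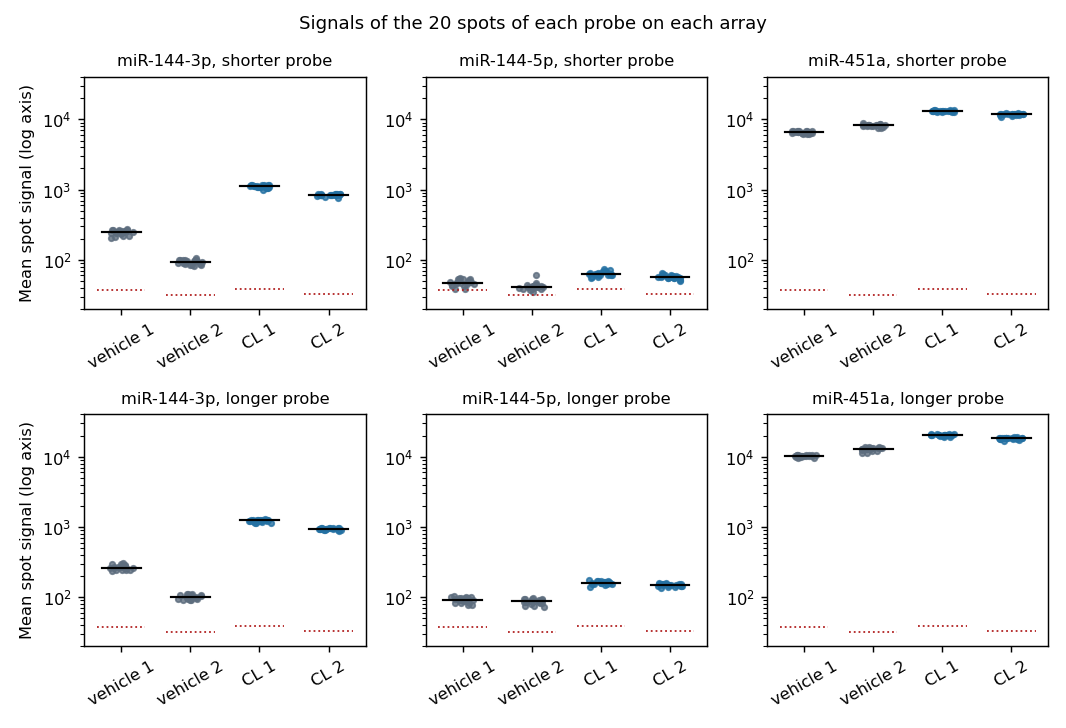
Mean spot signal (log axis) of the 20 spots of each member probe on vehicle 1, vehicle 2, CL 1 and CL 2, with shorter probes above and longer probes below. Points are spots, black lines medians and dotted lines the mean of the negative control spots. For miR-144-3p both CL arrays sit well above both vehicle arrays and vehicle 2 is lowest, while the shorter miR-144-5p probe lies just above the controls on the vehicle arrays.

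The spots were then background-corrected, normalised between arrays and summarised to a log2 signal per miRNA. For miR-144-3p the log2 signal was 7.76 and 6.41 on vehicle 1 and vehicle 2, and 10.32 and 9.79 on CL 1 and CL 2. The group means were 7.09 ± 0.96 for the vehicle and 10.06 ± 0.38 for CL (SD, n = 2 each). The groups did not overlap, and their gap was wider than the spread between the vehicle arrays, although that spread was itself wide. The log2 fold change was 2.97 (SE 0.50, 95% confidence interval 1.63 to 4.32), or 7.85-fold, and it ranked 1 of 425 tested miRNAs from the top. Within the columns of the slide the difference was 2.56 and 3.38. Its adjusted p was 0.0909 by limma with Benjamini-Hochberg adjustment, which misses 0.05, and its unadjusted p in that fit was 0.00297.

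miR-144-5p had a log2 signal of 5.34 and 5.42 on vehicle 1 and 2, and of 6.40 and 6.20 on CL 1 and 2. Means were 5.38 ± 0.055 and 6.30 ± 0.14 (SD, n = 2 each), with no overlap and a gap well beyond the spread in either group. These values summarise both probes, and the shorter was not well above background in the vehicle. The log2 fold change was 0.92 (SE 0.13, 95% confidence interval 0.57 to 1.28), or 1.90-fold, rank 26 of 425. The difference was 1.06 and 0.79 within the columns. The limma fit gave an unadjusted p of 0.00157 and a Benjamini-Hochberg adjusted p of 0.0909.

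For miR-451a the log2 signal was 12.95 and 13.20 on vehicle 1 and vehicle 2, and 13.92 and 13.70 on CL 1 and CL 2. Means were 13.07 ± 0.17 and 13.81 ± 0.16 (SD, n = 2 each), and again the groups did not overlap. The log2 fold change was 0.73 (SE 0.16, 95% confidence interval 0.31 to 1.16), or 1.66-fold, rank 40 of 425. Within the columns it was 0.97 and 0.50. The limma fit gave an unadjusted p of 0.00766 and a Benjamini-Hochberg adjusted p of 0.103.

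The order of the arrays was vehicle 1, vehicle 2, CL 2, CL 1 from lowest to highest for miR-144-5p and miR-451a, and vehicle 2, vehicle 1, CL 2, CL 1 for miR-144-3p. All 3 members thus had both CL arrays above both vehicle arrays, a pattern shown by 38.1% of all tested miRNAs. All 3 were also higher at an unadjusted limma p under 0.05, as were 18.6% of the tested miRNAs. In all, 148 of the 425 tested miRNAs, 34.8%, passed the unadjusted limma threshold in either direction, and 0, or 0%, passed it after Benjamini-Hochberg adjustment. With the slide column as a block in the limma fit, miR-144-3p and miR-144-5p passed, with Benjamini-Hochberg adjusted p of 0.0139 and 0.0471, and miR-451a had 0.0653. In that fit 9.41% of the tested miRNAs passed in either direction and 3.53% in the higher direction. Fitted probe by probe with that block, no member probe passed. An exact permutation test of the 4 arrays gave each member a two-sided p of 0.333, the smallest that 2 arrays against 2 allow. Nothing in the labels says that the arrays hold separate animals, so these p-values measure only the spread between the arrays. In a bulk sample, more cells of a type and more RNA per cell cannot be told apart.

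**Figure D3:**
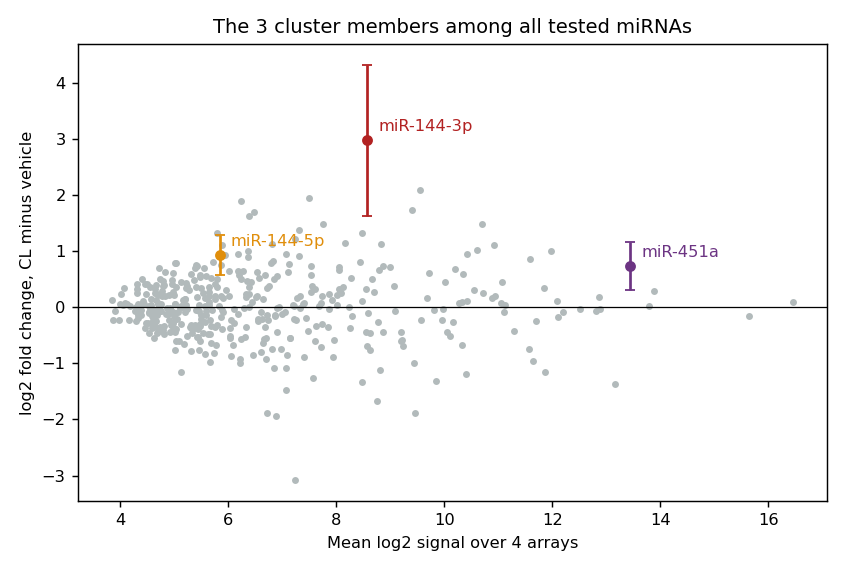
Log2 fold change of CL over vehicle against the mean log2 signal over 4 arrays for the 425 tested miRNAs (grey) and the 3 members (coloured, with 95% confidence intervals from limma). miR-144-3p has the highest fold change of all tested miRNAs, 2.97, while miR-144-5p and miR-451a lie at 0.92 and 0.73 among many others of that size.

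The probes, fitted on their own, gave the members the same direction. The fold change on the log2 scale was 2.94 (SE 0.50) for the shorter and 3.04 (SE 0.50) for the longer miR-144-3p probe, ranks 2 and 1 of 708 tested probes. It was 1.03 (SE 0.16) for the longer miR-144-5p probe. For miR-451a it was 0.91 (SE 0.21) with the shorter and 0.54 (SE 0.16) with the longer probe. The miR-451a probes differed in this after quantile normalisation, and without normalisation between arrays they gave 0.76 and 0.74. The 5 member probes that were well above background in both groups had both CL arrays above both vehicle arrays, against 36.3% of tested probes, and an unadjusted limma p under 0.05 in the higher direction, against 19.5%; the shorter miR-144-5p probe is not counted here. Their Benjamini-Hochberg adjusted p lay between 0.0786 and 0.0986 in limma, while 3 of 708 tested probes, 0.424%, passed 0.05, none of them a member. Blocked by slide column, the limma adjusted p was 0.0555 for each miR-144-3p probe and 0.0888 for the longer miR-144-5p probe. For the shorter and longer miR-451a probes it was 0.109 and 0.125, so none of the 5 passed with the block either.

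Since Mir144 and Mir451a are cut from a shared transcript, the changes of their products were set against each other within each array. The log2 fold change of miR-144-3p exceeded that of miR-144-5p by 2.05, with 1.50 and 2.60 in the columns. The log2 fold change of miR-144-3p exceeded that of miR-451a by 2.24, with 1.59 and 2.88 in the columns. The differences of 2.05 and 2.24 shrank to 1.33 and 1.44 when vehicle 2 was left out and widened to 2.77 and 3.04 when vehicle 1 was. Between miR-144-5p and miR-451a the fold changes differed by 0.19, with 0.09 and 0.29 in the columns, and by 0.068 without normalisation between arrays. The exact permutation p was 0.333 for each of these 3 differences, and 0.333 after adjustment over them, the smallest possible with these 4 arrays. miR-144-3p also differed from the other members between the vehicle arrays: vehicle 2 lay below vehicle 1 by 1.35 on the log2 scale, a difference that was larger in size in only 7 of 425 tested miRNAs. miR-144-5p and miR-451a were 0.08 and 0.25 higher on vehicle 2 than on vehicle 1. Without vehicle 2 the fold change of miR-144-3p was 2.30, and without vehicle 1 it was 3.65.

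miR-451b, the product of the strand opposite Mir451a, was the only other miRNA on the array with a gene within 10 kb of the members. None of the 20 spots of either of its probes was well above background on any array, and its median signals ran from 28.7 to 36.6, in the range of the negative controls. It was not tested.

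The member probes were long and poor in C compared with those of the tested miRNAs. The longest probe had 20 bases for miR-144-3p, 23 for miR-144-5p and 22 for miR-451a, against a median of 17 over the tested miRNAs. C made up 20%, 17.4% and 13.6% of its bases in the same order, against a median of 31.8%. A linear fit of the signal on probe length and on the shares of C and G was then subtracted array by array, and the log2 signals of miR-144-3p became 7.64 and 6.60 on vehicle 1 and vehicle 2, and 9.98 and 9.48 on CL 1 and CL 2. Its log2 fold change was then 2.61, still rank 1 of 425, with a limma adjusted p of 0.0210 (Benjamini-Hochberg), in a fit where 51 of 425 miRNAs, 12%, passed. For miR-144-5p the values became 4.76, 5.36, 5.54 and 5.32, and for miR-451a 12.61, 13.34, 13.31 and 13.11 in the same order. In both, vehicle 2 now lay above CL 2, so the groups overlapped. The log2 fold changes were 0.37 for miR-144-5p and 0.23 for miR-451a, with limma adjusted p of 0.258 and 0.516. The signs of these 2 members thus stayed, while their unadjusted calls were lost.

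The cluster was then read beside other miRNAs that are abundant in red cells but made by many other cell types too. Of 9 such miRNAs on the array, 8 were tested and miR-363-3p was detected on no array. At an unadjusted limma p under 0.05, 3 of the 8 were higher in CL and 0 were lower, against 18.6% and 16.2% of all tested miRNAs, and 0 of the 8 passed the Benjamini-Hochberg adjusted threshold. These were miR-185-5p, with a log2 fold change of 0.64, miR-484, with 0.50, and miR-22-3p, with 0.44. The log2 fold changes of the 8 ranged from -0.16 for miR-92a-3p to 0.64, with a median of 0.26, against a median of -0.01 over all tested miRNAs, and 7 of the 8 were above 0, against 49.2% of all tested miRNAs. miR-16-5p, an abundant red cell miRNA of the miR-15 family, had 0.17. With the probe trend removed, the median was 0.13 and 2 of the 8 were higher at the unadjusted threshold, against 21.6% of all tested miRNAs in that fit. miR-23a-3p is the reference in the ratio with miR-451a and was not counted among the red cell miRNAs. It had log2 signals of 11.85 and 11.80 in the vehicle and 11.53 and 11.61 in CL. Its log2 fold change was -0.25, with an unadjusted limma p of 0.0885, a sign opposite to that of miR-451a. With the probe trend removed, miR-23a-3p had -0.41, with a limma unadjusted p of 0.0171 and a Benjamini-Hochberg adjusted p of 0.0718. In that fit miR-451a had 0.23, and 75 of 425 tested miRNAs were lower at the unadjusted threshold.

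Markers of other SVF cells also differed between the groups at the unadjusted threshold. Of all tested miRNAs, 18.6% passed that threshold in the higher and 16.2% in the lower direction. The part of these markers in the result on the cluster was not tested. Among leukocyte miRNAs, 2 of 6 were higher at the unadjusted limma threshold, miR-142-3p by 2.09 and miR-142-5p by 1.94 on the log2 scale, and miR-150-5p, found in mature lymphocytes, was lower, with -0.89. The summed leukocyte signal ran from 1901 to 2488 in the vehicle and from 3496 to 3590 in CL. That rise was not shared across the list, since miR-223-3p, miR-146a-5p and miR-155-5p had log2 fold changes of 0.09, 0.03 and -0.06. With the probe trend removed, the median of the 6 leukocyte miRNAs was -0.16, and 2 of 6 had a positive fold change. Both endothelial miRNAs were lower, miR-126-3p with a log2 fold change of -1.37 and miR-126-5p with -0.80, and their summed signal ran from 14176 to 15462 in the vehicle and from 5122 to 6432 in CL. Of the 5 mesenchymal miRNAs, 4 were higher, miR-199a-3p, miR-199a-5p, miR-199b-5p and miR-214-3p, with log2 fold changes from 0.95 to 1.48, and miR-10b-5p was lower, with -1.31. Their summed signal ran from 3669 to 4654 in the vehicle and from 6677 to 6936 in CL. The summed signal of the cluster itself ran from 8179 to 9518 in the vehicle and from 14249 to 16854 in CL. Of the smooth muscle and pericyte miRNAs, miR-145a-5p was lower, with -0.75, and miR-143-3p had -0.43 (limma unadjusted p of 0.0631). The summed signal of these mural miRNAs ran from 534 to 633 in the vehicle and from 392 to 425 in CL. None of the 3 skeletal and heart muscle miRNAs passed the unadjusted threshold, and their summed signal overlapped, from 144 to 283 in the vehicle and from 242 to 275 in CL. None of the marker miRNAs named here passed the Benjamini-Hochberg adjusted threshold of the limma fit without a block. With the slide column as a block, 1 of 2 endothelial, 3 of 6 leukocyte and 5 of 5 mesenchymal miRNAs passed it. No red cell, mural or muscle miRNA outside the cluster did, and 9.41% of all tested miRNAs passed in that fit. With the probe trend removed, 2 of 2 endothelial, 3 of 6 leukocyte, 5 of 5 mesenchymal, 1 of 2 mural and 1 of 8 other red cell miRNAs passed it, the last being miR-185-5p. In that fit 12% of all tested miRNAs passed.

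**Figure D4:**
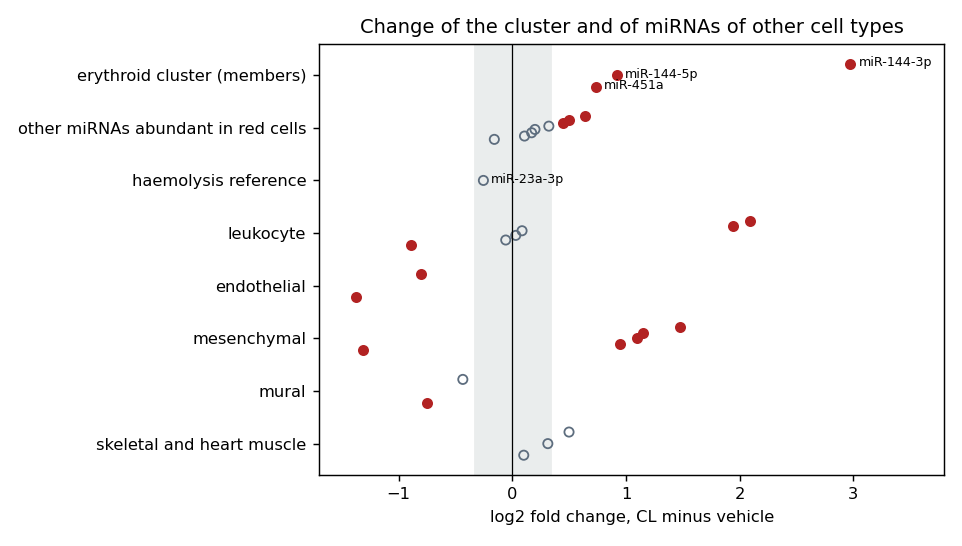
Log2 fold change of CL over vehicle for the tested miRNAs of each list, 1 point per miRNA, filled where the unadjusted limma p was under 0.05 and open elsewhere, with the grey band marking the middle 50% of all 425 tested miRNAs. All 3 cluster members lie right of the band, the other red cell miRNAs spread from -0.16 to 0.64, and miR-142-3p and miR-142-5p are the marker miRNAs nearest to miR-144-3p.

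The tested miRNAs whose values over the 4 arrays were most like those of each member were named by Euclidean distance, after each miRNA's own mean had been subtracted. For miR-144-3p these were miR-142-3p (distance 0.97), miR-142-5p (1.03) and miR-136-5p (1.14), a miRNA of the imprinted Dlk1-Dio3 region. All 3 had their lowest value on vehicle 2, as miR-144-3p had: for miR-142-3p the log2 signals were 9.32 and 7.70 in the vehicle and 10.62 and 10.57 in CL. For miR-451a the nearest were miR-135a-1-3p (0.12), its cluster partner miR-144-5p (0.22) and miR-344i (0.27). For miR-144-5p they were miR-135a-1-3p (0.14), miR-451a (0.22) and miR-214-3p (0.24). miR-144-5p and miR-451a were thus among each other's nearest, whereas miR-144-3p was not near either of them on this measure. With 4 arrays such likeness is a description.

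A single tested miRNA shared bases 2 to 7 with a member, among the 339 of 425 that had a RefSeq mature sequence under the same name. It was miR-101a-3p, printed here with its bases 2 to 8 in capitals to show that it parts from miR-144-3p at the last base of the seed.
mmu-miR-101a-3p: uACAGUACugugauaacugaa
Its log2 signal was 8.53 and 7.10 on vehicle 1 and vehicle 2, and 9.15 and 9.14 on CL 1 and CL 2. The groups did not overlap and vehicle 2 was again the lowest array. The log2 fold change was 1.33 (SE 0.50), with a limma unadjusted p of 0.0501 and a Benjamini-Hochberg adjusted p of 0.143.

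Over 22 processing alternatives, each member kept a fold change above 0. Those that changed only the test, the block or the set of tested miRNAs could not move it. miR-144-3p ran from 2.30 to 3.65 on the log2 scale, miR-144-5p from 0.37 to 1.34, miR-451a from 0.23 to 0.94, and the lowest values of miR-144-5p and miR-451a were those with the probe trend removed. The deposited log2 table gave 2.99, 1.34 and 0.94 for miR-144-3p, miR-144-5p and miR-451a.

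**Figure D5:**
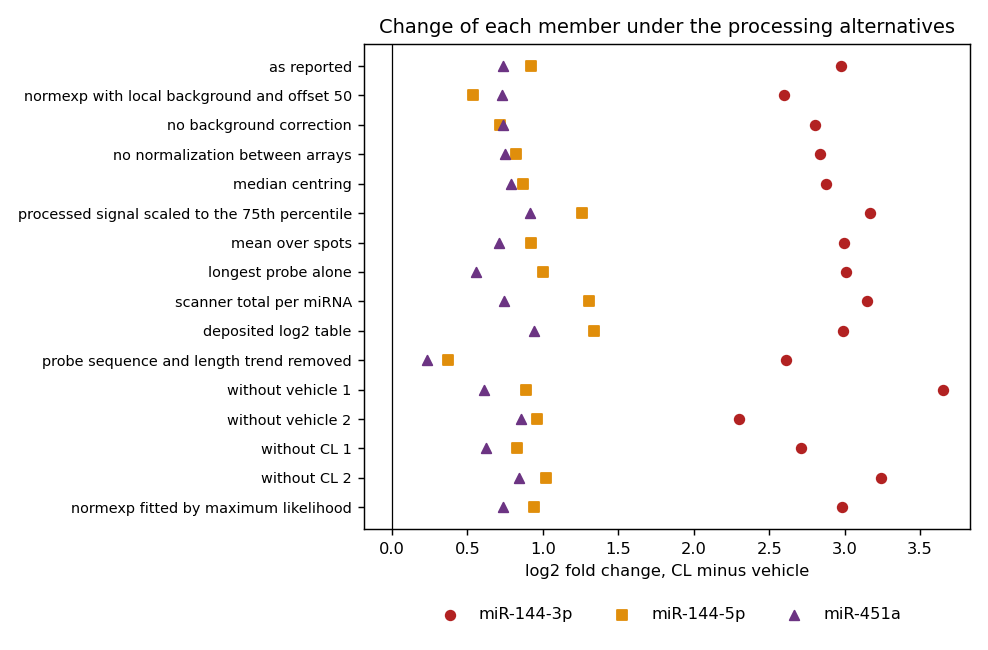
Log2 fold change of CL over vehicle for the 3 members as reported and under the processing alternatives that change the value, 1 line per alternative. miR-144-3p stays between 2.30 and 3.65, apart from the other members, while miR-144-5p and miR-451a move closest to 0 when the probe sequence and length trend is removed.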

How the data were processed

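miRNA levels were measured on 4 Agilent 1-colour arrays, 2 vehicle and 2 CL. The deposited scanner files hold spot intensity from Feature Extraction 10.7.1.1. The authors also deposited a log2 table of processed signal per miRNA, which served as an alternative. The study's methods name robust multi-array analysis for its arrays and do not say how that table was made. Mean spot intensity, without local background subtraction, was corrected with normexp (offset 0). Outlier and control spots were left out, log2 values were quantile-normalised, and spots were summarised per miRNA by median polish, or per probe by the median. A miRNA was called detected on an array by the scanner software, and a probe where at least 50% of its spots were well above background. A feature was tested if either group had it detected on both of its arrays, using limma 3.58.1 in R 4.3.3 (lmFit and eBayes, two-sided, Benjamini-Hochberg over all features tested, threshold 0.05). Significance analysis of microarrays, the test named in the methods for arrays, was not run.

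Single values were tested by exact permutation over the 4 arrays. The number of arrays limits the precision, and every call rests on 2 arrays per group. Scripts were tested on simulated data. The members and the marker lists were chosen with earlier results of these data known. Named were the members, list miRNAs past the unadjusted threshold with the lists' ranges, miR-23a-3p, miRNAs within 10 kb, miRNAs sharing bases 2 to 7, and the 3 nearest in profile. miR-16-5p, miR-143-3p and the other list miRNAs below the threshold were named after their values were seen. miR-486-5p was not analysed here, because no array entry matched the names miR-486-5p, miR-486a-5p or miR-486b-5p. Sequences and gene positions are those of RefSeq for GRCm38.p6. Probe sequences come from the array files, whose listed positions served only to check that each member probe lay within its mature strand.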

Additional observations from a re-analysis of the deposited data

How the results depend on the processing

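No member changed sign under any alternative run, nor did any member probe that was well above background in both groups. The shorter miR-144-5p probe, tested through the CL arrays alone, is not counted here. Alternatives that changed only the test, the block or the set of tested features could not have changed a sign. Apart from the fits with a block, 3 settings that used all 4 arrays put miR-144-3p past the adjusted threshold. They were no normalisation between arrays (log2 fold change 2.83), median centring (2.87) and removal of the probe trend (2.61). With median centring, limma gave every miRNA a shared variance, so the wide vehicle spread of miR-144-3p did not enter that call. On all 4 arrays, miR-144-5p passed it without normalisation (0.82) and with the scanner's total per miRNA (1.30), and miR-451a without normalisation (0.75). Leaving out 1 array at a time gave 2.30 to 3.65 for miR-144-3p, 0.82 to 1.02 for miR-144-5p and 0.61 to 0.86 for miR-451a. The count of miRNAs past the adjusted threshold, 0 as reported, was 64 without normalisation, 44 with median centring, 2 when limma was given an intensity trend, 7 from the deposited values, 27 with the scanner's totals, 51 with the probe trend removed and 1 to 230 with an array left out, the highest without vehicle 1. The count at the unadjusted threshold, 148, was 91 with median centring, 52 by the methods' t-test and 61 to 263 with an array left out. A lone array was there assumed to vary like those of the other group. Of the members, miR-144-3p missed the unadjusted threshold by the methods' t-test, with p of 0.0549. By that t-test miR-144-5p had 0.0130 and miR-451a 0.0471. miR-451a missed the unadjusted threshold with the scanner's totals, with a limma p of 0.0547. The cause of these shifts was not tested.

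The replicate number, which is also the slide column, is not stated to pair the arrays, and the deviations of vehicle 1 and CL 1 from their group means correlated by 0.12 over 425 miRNAs. With it as a replicate block, the log2 fold changes stayed at 2.97, 0.92 and 0.73 for miR-144-3p, miR-144-5p and miR-451a, with limma adjusted p of 0.0139, 0.0471 and 0.0653, and 40 miRNAs, 9.41%, passed. Fitted by probe, the same block put no member probe past the threshold. Limma adjusted p ran from 0.0555 to 0.125 over the member probes well above background in both groups. In alternatives added after the data were seen, the block gave miR-144-3p 2.98 and 19 miRNAs past the threshold with normexp fitted by maximum likelihood, and 2.61 and 60 miRNAs with the probe trend removed. In these fits miR-144-5p had limma adjusted p of 0.05003 and 0.265, and miR-451a 0.0675 and 0.515, so neither passed.

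For the probes, no normalisation gave 2.83 and 2.89 for the shorter and longer miR-144-3p probes, 0.93 for the longer miR-144-5p probe and 0.76 and 0.74 for the miR-451a probes, and median centring gave 2.87 and 2.93 for miR-144-3p. With an array left out, the shorter and longer probes ran from 2.25 to 3.64 and 2.37 to 3.71 for miR-144-3p, 0.69 to 0.79 and 0.92 to 1.14 for miR-144-5p, and 0.72 to 1.11 and 0.42 to 0.66 for miR-451a. The difference between the fold changes of miR-144-5p and miR-451a was 0.068 without normalisation, against 0.19. The signal over background limits the shorter miR-144-5p probe, which was not well above background in the vehicle: its values here are fitted differences, not measured folds, and were 0.32 with local background and an offset and 0.48 without background correction.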
